A study of Mus musculus with 8 samples.

Results

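The genes described here are the CCN matricellular genes Ccn1, Ccn2, Ccn3, Ccn4 and Ccn5, the YAP target Ankrd1, the coactivator gene Yap1 and its DNA-binding partner gene Tead1. They were chosen by name, and all 8 were measured among the 19938 genes with a single symbol on the array. The probe set with the highest mean was taken where a gene had more than 1, which applied only to Tead1 among them. Samples were hearts of male CH3 mice, labelled 8 to 10 weeks old and 25 to 30 g, all subjected to occlusion of the left anterior descending coronary artery for 45 minutes and then to reperfusion for 2 hours. The DJ-1 group (4 hearts) received recombinant DJ-1 protein 1 hour before ligation, and the placebo group (4 hearts) received PBS at the same time. Every heart in both groups was thus ischaemic and reperfused, and no heart without ischaemia was analysed here, so the values do not show what ischaemia itself did.

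CCN proteins are secreted into the extracellular matrix, where they act mainly through integrins and heparan sulphate rather than as structural fibres. YAP is a coactivator that the Hippo kinase cascade keeps out of the nucleus. When that restraint is released, as under mechanical load, YAP binds TEAD factors, and Ccn1, Ccn2 and Ankrd1 are its most used readouts. Ccn1 is also an immediate early gene, induced within the first hours by growth factors, stretch and oxidants. In the heart, Ankrd1 is made by cardiomyocytes, and Ccn2 is known for its part in fibrosis.

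RefSeq promoter windows (GRCm38.p6) were at hand for 3 of the 8 genes. They are shown because a single short letter run, the TEAD recognition motif GGAATG, can be read directly in each of them. The 250 bases before the annotated gene are written 5′ to 3′ on its strand (208 for Yap1, whose window in the table reaches 42 bases into the annotated gene, left out here), with each match to GGAATG on either strand in capitals.
Ccn1, chr3:145649986-145650235, minus strand: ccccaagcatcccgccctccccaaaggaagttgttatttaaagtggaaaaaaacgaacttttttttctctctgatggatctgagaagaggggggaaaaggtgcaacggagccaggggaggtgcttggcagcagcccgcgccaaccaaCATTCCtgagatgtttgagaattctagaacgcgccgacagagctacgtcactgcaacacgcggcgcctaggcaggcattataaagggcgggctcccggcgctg
Ankrd1, chr19:36119845-36120094, minus strand: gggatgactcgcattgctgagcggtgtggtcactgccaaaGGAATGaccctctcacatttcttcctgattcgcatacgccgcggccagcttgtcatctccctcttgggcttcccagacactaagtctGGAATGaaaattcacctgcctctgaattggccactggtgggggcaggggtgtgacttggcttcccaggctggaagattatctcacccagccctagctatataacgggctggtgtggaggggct
Yap1, chr9:8004639-8004846, minus strand: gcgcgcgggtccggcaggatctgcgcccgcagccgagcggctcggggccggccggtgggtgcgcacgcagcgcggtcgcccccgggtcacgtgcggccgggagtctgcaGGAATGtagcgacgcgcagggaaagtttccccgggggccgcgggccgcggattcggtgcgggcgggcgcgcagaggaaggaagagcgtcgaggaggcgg
The Ccn1 window held 1 match, on the opposite strand, starting 103 bases before the gene. The Ankrd1 window held 2, at 210 and 123 bases before the gene, and the Yap1 window held 1, at 99 bases. Among 32851 promoter windows of 250 bases, 12.6% held at least 1 match. The AP-1 motif TGANTCA, found in 6.75% of windows, and the CArG box of serum response factor, found in 1.47%, had no match in these 3 windows. The E-box CACGTG, found in 6.02% of windows, had 1 match, in the Yap1 window at 121 bases before the gene. No matches of different motifs overlapped. A match is only a description of the letters.

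The authors' values are log2 expression from RMA, a background correction, normalization and summary of probes, so a difference of 1 is a doubling. Array medians over all probe sets lay between 5.25 and 5.35, and correlations between arrays between 0.978 and 0.987. A principal component analysis set DJ-1 replicates 3 and 4 aside, with first-component scores of 19.6 and 23.5, while the remaining 6 arrays scored from -15.0 to 5.31. The sample codes in the labels run from 13 to 16 for DJ-1 and from 9 to 12 for placebo, and if hearts were handled in that order, batch could not be told apart from treatment. As a guide to background, 1027 olfactory receptor genes had a 95th percentile of 4.74. Of the 8 genes, 7 had a mean above it, and Ccn4 lay at it, also at 4.74. Cardiomyocyte markers were strongly expressed, all 8 of 8 above that percentile, so the tissue matched its label.

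No gene of the set differed between DJ-1 and placebo hearts beyond the spread between hearts. In the limma fit over all genes, 0 of the 8 passed an adjusted p of 0.05, against 0 of 19938 genes (0%). At an unadjusted p under 0.05 the count was 0 of 8, against 1194 genes (5.99%), and no gene of the set had groups that did not overlap, against 642 genes (3.22%). Ordinary least squares, with each gene's own variance, gave 0 genes past the same threshold and 1118 before adjustment. Means were lower in DJ-1 hearts for 6 of the 8 and higher for 2, where 47.5% of all genes were lower and 52.5% higher. The median difference of the 8 was -0.10, beside 0.01 over all genes. Among the 13693 genes above the background guide level, 54.6% were lower (median -0.01), as were 5 of the 7 genes of the set above it (median -0.09). Replicate numbers are the labels' only statement of separate animals, so the p-values measure only the spread between these samples. What the data do show is how unequally the 8 genes varied from heart to heart, which the following values give gene by gene.

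**Figure D1:**
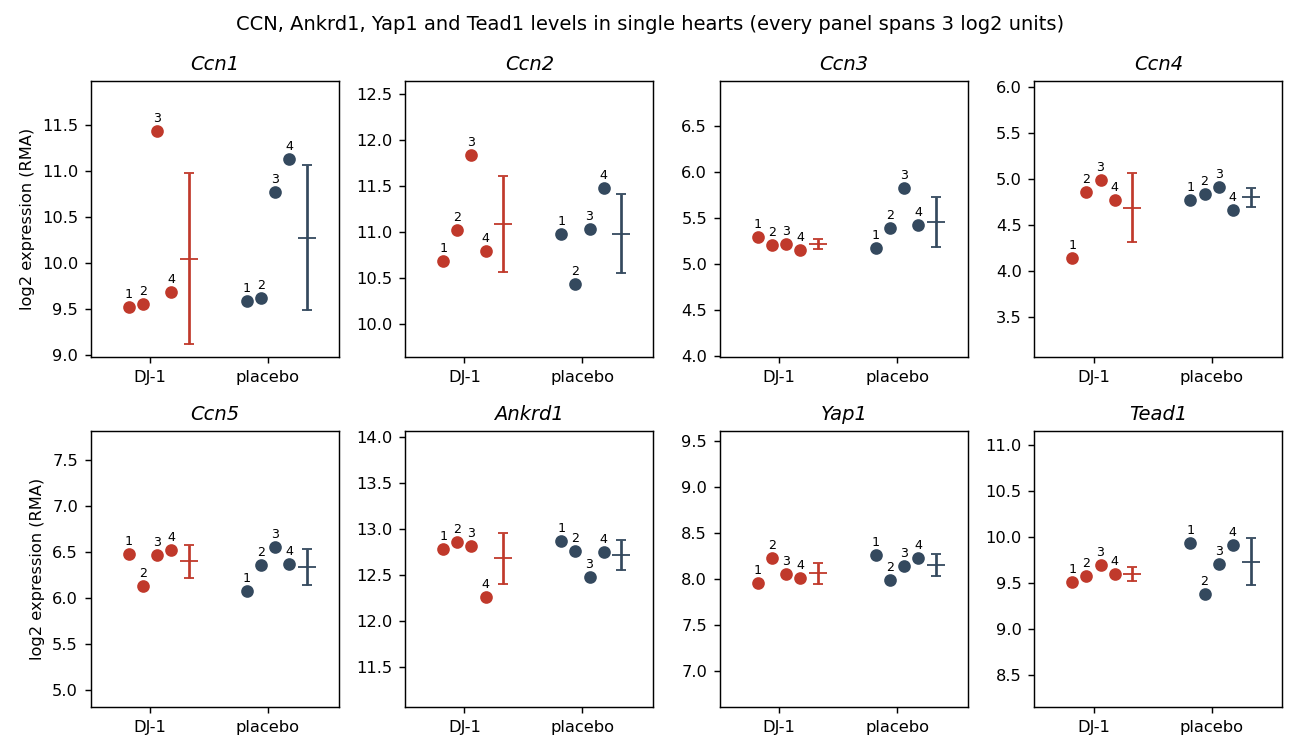
Log2 expression of the 8 genes in each of 4 DJ-1 hearts (red, left) and 4 placebo hearts (dark blue, right), with replicate numbers beside the points and the mean ± SD as a bar. Every panel spans 3 log2 units, so the wide scatter of Ccn1 and Ccn2 can be set against the narrow scatter of Yap1.

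Among the secreted proteins, Ccn1, an integrin-binding product of an immediate early gene, was either low or high, with no heart between. Its log2 level was 9.51, 9.55, 11.43 and 9.68 in DJ-1 replicates 1 to 4, against 9.59, 9.62, 10.76 and 11.12 in placebo replicates 1 to 4. Thus 5 hearts lay between 9.51 and 9.68, and 3 lay between 10.76 and 11.43, with an empty stretch of 1.08 between them. The high hearts were DJ-1 replicate 3 and placebo replicates 3 and 4, so both groups held high and low hearts. The highest heart had 3.78 times the signal of the lowest on the linear scale. The SD over all 8 hearts, 0.81, exceeded that of 99.8% of genes. Ccn1 averaged 10.04 ± 0.93 in DJ-1 hearts and 10.27 ± 0.79 in placebo hearts (SD, n = 4 each), a difference of -0.23 with a 95% confidence interval of -1.21 to 0.76 (limma adjusted p = 0.944). On the linear scale this interval reaches from 0.432 to 1.69 times the placebo level, so a sizeable change either way would not have been detectable. The difference was -0.69 without DJ-1 replicate 3, while leaving out placebo replicate 4 gave 0.055.

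Ccn2, the connective tissue growth factor gene, shared its highest hearts with Ccn1. It stood at 10.69, 11.02, 11.84 and 10.80 in DJ-1 replicates 1 to 4, against 10.98, 10.44, 11.04 and 11.48 in placebo replicates 1 to 4. DJ-1 replicate 3 and placebo replicates 4 and 3 were again the top 3 hearts, although placebo replicate 3 was barely above DJ-1 replicate 2. The groups averaged 11.09 ± 0.52 in DJ-1 hearts and 10.99 ± 0.43 in placebo hearts (SD, n = 4 each). The difference of 0.10 (SE 0.26) had an interval of -0.46 to 0.67 and changed sign to -0.15 when DJ-1 replicate 3 was left out and to -0.08 when placebo replicate 2 was left out. Its SD over the 8 hearts, 0.45, exceeded that of 98.5% of genes.

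Ccn3, which counteracts Ccn2 in several models of fibrosis, had the smallest p of the 8 without passing. Its levels were 5.29, 5.20, 5.22 and 5.15 in DJ-1 replicates 1 to 4, against 5.18, 5.39, 5.82 and 5.43 in placebo replicates 1 to 4. The 4 DJ-1 hearts lay close together, and 3 of the 4 placebo hearts lay above all of them, while placebo replicate 1 lay inside their range. The means were 5.21 ± 0.06 in DJ-1 hearts and 5.45 ± 0.27 in placebo hearts (SD, n = 4 each). The difference of -0.24 (SE 0.13) had a limma adjusted p of 0.824 and an unadjusted p of 0.0858, and the exact permutation p was 0.114. It was -0.12 without placebo replicate 3 and -0.33 without placebo replicate 1. With quantile normalization the unadjusted p was 0.0441 and with cyclic loess 0.0408, and adjusted p was 0.904 and 0.899.

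Ccn4, a Wnt-induced family member, stood at the background guide level, and its values carry little weight. It was at 4.14, 4.85, 4.98 and 4.77 in DJ-1 replicates 1 to 4, against 4.77, 4.83, 4.91 and 4.66 in placebo replicates 1 to 4. A single low heart, DJ-1 replicate 1, set the difference of -0.11 (SE 0.16), which was 0.072 without it. Ccn5, which lacks the C-terminal domain of its relatives, stood at 6.48, 6.13, 6.47 and 6.52 in DJ-1 replicates 1 to 4, against 6.08, 6.35, 6.55 and 6.37 in placebo replicates 1 to 4. The groups covered the same range, with 1 low heart in each, and the difference was 0.06 (SE 0.12, interval -0.21 to 0.33). It was -0.026 without placebo replicate 1.

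Ankrd1 encodes a titin-binding ankyrin repeat protein that also acts in the nucleus, and its signal was high in all hearts. It measured 12.78, 12.86, 12.82 and 12.27 in DJ-1 replicates 1 to 4, against 12.88, 12.76, 12.49 and 12.76 in placebo replicates 1 to 4. In all, 6 hearts lay between 12.76 and 12.88, and the low ones were DJ-1 replicate 4 and placebo replicate 3. The difference of -0.04 (SE 0.14) had an interval of -0.35 to 0.28, or 0.786 to 1.21 times the placebo level. It turned to 0.10 without DJ-1 replicate 4, and leaving out placebo replicate 1 gave 0.02. Of the hearts high in Ccn1, placebo replicate 3 was among the 2 lowest in Ankrd1.

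Yap1 varied least of the 8 genes. It stood at 7.96, 8.23, 8.06 and 8.01 in DJ-1 replicates 1 to 4, against 8.26, 7.99, 8.14 and 8.23 in placebo replicates 1 to 4. The whole span over 8 hearts was 0.30 on the log2 scale, and the difference was -0.09 (SE 0.10, interval -0.31 to 0.13). Tead1, which brings YAP to DNA, stood at 9.51, 9.57, 9.69 and 9.60 in DJ-1 replicates 1 to 4, against 9.93, 9.37, 9.70 and 9.91 in placebo replicates 1 to 4. Here 3 placebo hearts lay above every DJ-1 heart and placebo replicate 2 lay below all of them. The difference was -0.14 (SE 0.13, interval -0.41 to 0.14), and -0.25 without placebo replicate 2 (limma unadjusted p = 0.0333, adjusted p = 0.826). The other Tead1 probe set averaged 9.47 ± 0.14 in DJ-1 hearts and 9.62 ± 0.22 in placebo hearts (SD, n = 4 each), a difference of -0.15 that goes the same way.

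**Figure D2:**
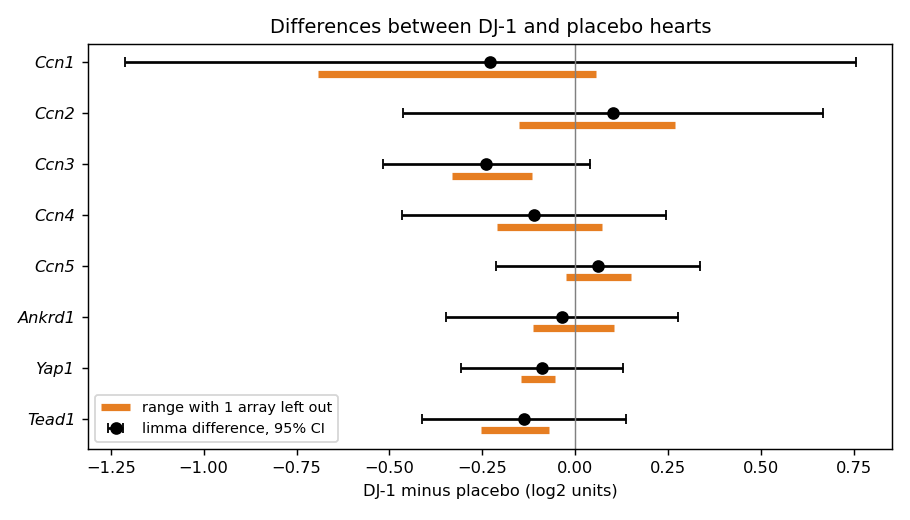
Difference between DJ-1 and placebo hearts (log2 units) for each gene, as the limma estimate with its 95% confidence interval (black) and the range of estimates with each array left out in turn (orange). All 8 intervals include 0, and the interval of Ccn1 is wider than those of the other 7.

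To see how the genes varied together, Pearson and Spearman correlations over the 8 hearts were computed for all 28 pairs, with exact permutation p-values adjusted over the 28. The 7 pairs with Ccn1 are not given a coefficient, since its hearts fall into separate clusters of 5 and 3, too few for a value within either. Of the other 21 pairs, 0 passed an adjusted p of 0.05. Yap1 and Tead1 had r = 0.77 (exact permutation p = 0.0266, adjusted p = 0.372) and rho = 0.83 (exact permutation p = 0.0154, adjusted p = 0.391). Without DJ-1 replicate 1 and placebo replicate 1, the hearts farthest from the Yap1 median, r was 0.65, and with values centred within each group it was 0.73. Ccn2 and Ankrd1 had r = 0.23 (exact permutation p = 0.596, adjusted p = 0.945) and rho = 0.07 (exact permutation p = 0.882, adjusted p = 0.950), and r was 0.25 without DJ-1 replicate 3 and placebo replicate 2. No relation between Ccn2 and Ankrd1 was detectable over 8 hearts, and the pairs of Ccn1 with these 2 YAP readouts are not covered by that statement.

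Genes whose pattern over the hearts was most like that of Ccn1, ranked by Pearson correlation over 8 hearts among 9646 genes above the median level, were Ccr7, Tent2 and Nr4a1. No coefficient is given, for the reason stated above. These 3 genes were the highest of 9646 in these same 8 hearts, so their likeness to Ccn1, order included, is only descriptive. Nr4a1, an orphan nuclear receptor and immediate early gene, stood at 8.86, 8.88, 11.34 and 9.87 in DJ-1 replicates 1 to 4, against 9.37, 9.43, 10.21 and 10.72 in placebo replicates 1 to 4. The 8 hearts stood in the same order for Nr4a1 as for Ccn1, and the mean absolute gap between their centred log2 values was 0.25. The chemokine receptor gene Ccr7 and the poly(A) polymerase gene Tent2 had their 3 highest values in the same 3 hearts as Ccn1, with smaller spans of 0.49 and 0.34 on the log2 scale against 1.92 for Ccn1.

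For Ccn2 the most alike genes were Pla2g6, a phospholipase gene (r = 0.97 over 8 hearts), Dnajb5, a co-chaperone gene (r = 0.96), and Ttc19, a mitochondrial protein gene (r = 0.96). These coefficients are the highest of 9646 and serve only as a measure of likeness, so they carry no p, and without the 2 hearts farthest from the Ccn2 median they were 0.89 for each of the 3 genes. Dnajb5 stood at 7.51, 7.66, 8.15 and 7.72 in DJ-1 replicates 1 to 4, against 7.66, 7.49, 7.71 and 7.90 in placebo replicates 1 to 4, with its top hearts again DJ-1 replicate 3 and placebo replicate 4. For Ankrd1 they were Eif3a, a translation initiation factor gene (r = 0.97), Fam181b (r = 0.97) and the kinase gene Bmp2k (r = 0.96). That likeness rested on DJ-1 replicate 4 and placebo replicate 3, without which the coefficients were 0.59, 0.61 and 0.40.

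**Figure D3:**
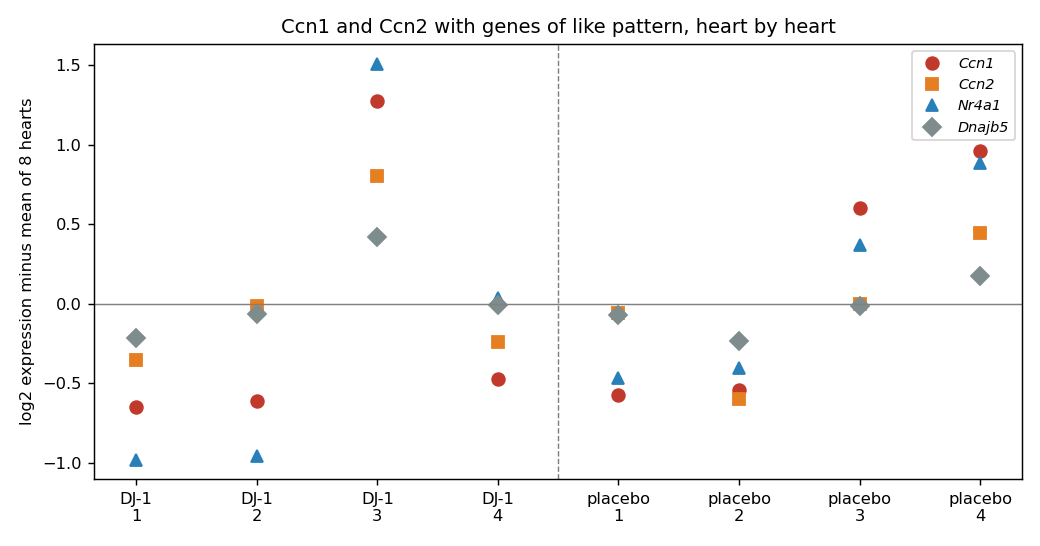
Log2 expression minus the mean of 8 hearts for Ccn1, Ccn2, Nr4a1 and Dnajb5 in DJ-1 hearts (left of the dashed line) and placebo hearts (right). DJ-1 replicate 3 and placebo replicate 4 are the highest hearts for all 4 genes, and the lowest is DJ-1 replicate 1 for Ccn1 and Nr4a1 and placebo replicate 2 for Ccn2 and Dnajb5.

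The genes around these 8 in the pathway were also without a passing member. Of the Hippo kinases and scaffolds, which restrain YAP, 15 of 16 were measured, and 0 passed in either direction, with 12 lower in mean, 3 higher and a median difference of -0.08. Sav1, the scaffold of the Hippo kinases, stood at 7.35, 7.33, 7.19 and 7.27 in DJ-1 replicates 1 to 4, against 7.44, 7.55, 7.50 and 7.44 in placebo replicates 1 to 4. All 4 DJ-1 hearts lay below all placebo hearts, with a difference of -0.20 (SE 0.09, limma adjusted p = 0.824). It was the 1 gene of 15 on this list without overlap, against 3.22% of all genes. Its limma unadjusted p was 0.0407, but 0.0797 with quantile normalization and 0.0805 with cyclic loess. The other members of smallest p were Wwc1, an upstream scaffold gene near background, with 0.18 (SE 0.11), and the angiomotin-like gene Amotl1 with -0.12 (SE 0.09). YAP's paralogue gene, other TEADs and cofactors gave 0 passing of 7, with a median of -0.06. Their leading members were the cofactor genes Vgll3 at -0.19 (SE 0.15) and Vgll2 at 0.17 (SE 0.15), and the factor gene Tead4 at 0.13 (SE 0.11).

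A list of further YAP/TAZ targets, without Ccn1, Ccn2 and Ankrd1, had 20 genes measured of 20, and 0 passed. Means were lower for 15 and higher for 5, with a median of -0.08. Amotl2, Lats2 and Ptpn14 are also on the list of Hippo kinases and scaffolds, so the splits of these lists are not independent. With quantile normalization or cyclic loess the split was 13 lower and 7 higher. Leaving out single arrays gave from 12 lower (without placebo replicate 2, median -0.036) to 17 lower (without DJ-1 replicate 2). Nt5e, the surface enzyme that makes adenosine, went the other way from most of the list, at 8.21, 8.07, 8.42 and 8.19 in DJ-1 replicates 1 to 4, against 7.67, 7.70, 7.86 and 7.51 in placebo replicates 1 to 4. Its groups did not overlap, and the difference of 0.54 (SE 0.11) had a limma adjusted p of 0.824. On this list 2 of 20 genes were without overlap, against 3.22% of all genes. Foxf2, a transcription factor gene under the background guide level, differed by 0.25 (SE 0.12) and the growth factor gene Tgfb2 by -0.17 (SE 0.10).

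CCN receptors and coreceptors had 13 of 14 measured, 0 passing, 7 higher and 6 lower, and a median of 0.00. Their leading members were the endocytic receptor gene Lrp1 at -0.18 (SE 0.09), the heparan sulphate proteoglycan gene Sdc4 at 0.19 (SE 0.11) and the integrin gene Itga6 at -0.15 (SE 0.10). Other matricellular genes had 10 of 11 measured and 0 passing, with 4 higher, 6 lower and a median of -0.02. Thrombospondin genes held the extremes of this list, without passing. Thbs1 was at 10.16, 10.33, 10.84 and 10.17 in DJ-1 replicates 1 to 4, against 10.01, 10.07, 9.53 and 9.50 in placebo replicates 1 to 4. The groups did not overlap, and the difference of 0.60 (SE 0.18) had a limma adjusted p of 0.824. On this list 2 of 10 genes were without overlap, against 3.22% of all genes. The placebo hearts high in Ccn1, replicates 3 and 4, were those lowest in Thbs1, whereas DJ-1 replicate 3 was highest in both. Thbs2, also without overlap, differed by -0.44 (SE 0.11) and the tenascin gene Tnxb, with overlap, by -0.23 (SE 0.11), both at a limma adjusted p of 0.824.

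A list around the Ankrd1 product, of other muscle ankyrin repeat genes, titin and partner genes, had 7 of 8 measured and 0 passing. Of these, 2 were higher and 5 lower, with a median of -0.10. Titin itself (Ttn) differed by -0.31 (SE 0.18), the RNA-binding gene Ybx1 by -0.14 (SE 0.10) and the muscle ubiquitin ligase gene Trim63 by -0.18 (SE 0.15). Targets and cofactors of serum response factor, which share cytoskeletal control with YAP, had 12 of 12 measured and 0 passing, with 5 higher, 7 lower and a median of -0.01. The split turned to 7 higher and 5 lower with quantile normalization (median 0.024) and cyclic loess (median 0.021). Smooth muscle actin (Acta2) differed by 0.21 (SE 0.11), the coactivator gene Mrtfb by 0.23 (SE 0.13) and calponin (Cnn1) by 0.29 (SE 0.21). With its probe sets averaged, Mrtfb differed by only 0.09 (SE 0.10).

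**Figure D4:**
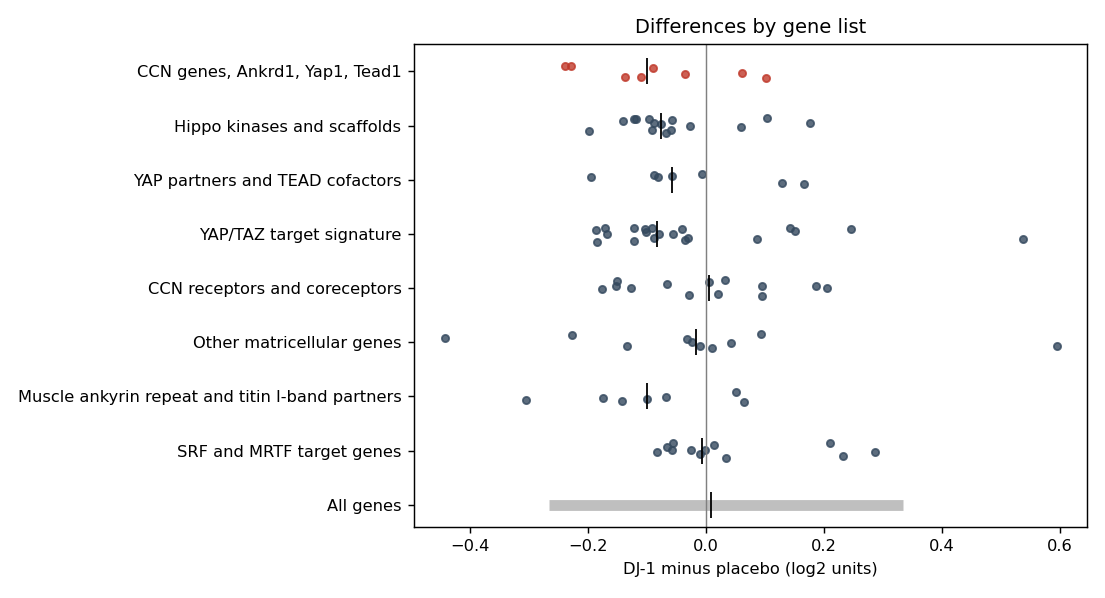
Differences between DJ-1 and placebo hearts (log2 units) for each measured gene of each list, with list medians as vertical ticks and, for all 19938 genes, a grey bar over the central 95% (-0.27 to 0.33). All 8 CCN, Ankrd1, Yap1 and Tead1 differences lie within the grey bar.

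Cell type markers give the setting of these values. Fibroblasts are a known source of Ccn2 and Ccn5, and 8 of 8 fibroblast markers were above background, with a summed log2 level of 66.96 to 68.05 in DJ-1 hearts and 68.06 to 69.20 in placebo hearts, ranges that only just did not overlap. The mean was lower in DJ-1 hearts for all 8 (7 with quantile normalization or cyclic loess), while 0 passed. Without placebo replicate 2, or without placebo replicate 3, it was lower for 6 of 8. This direction was not particular to fibroblasts. Means were also lower for 6 of 7 endothelial, 6 of 8 smooth muscle and pericyte, and 7 of 8 cardiomyocyte markers. The share lower was 47.5% over all genes and 54.6% over those above the background guide level. The median difference was -0.12 for fibroblast, -0.12 for endothelial and -0.11 for smooth muscle and pericyte markers. Of the monocyte and macrophage markers 4 of 7 were lower, while 3 of 4 platelet and 6 of 6 mesothelial and epicardial markers were higher. The last split turned to 2 higher and 4 lower without placebo replicate 4 (median -0.034). Platelet markers were 1 higher and 3 lower without DJ-1 replicate 1, and likewise without placebo replicate 3. Neutrophil markers, all 8 above background, had summed levels of 46.2 to 63.0 in DJ-1 hearts and 38.4 to 59.6 in placebo hearts, and all 8 had a higher mean. In the hearts high in Ccn1 the neutrophil sum was 50.4 in DJ-1 replicate 3, and 45.4 and 38.4 in placebo replicates 3 and 4. In those low in Ccn1 it was 59.7, 63.0 and 46.2 in DJ-1 replicates 1, 2 and 4, and 48.7 and 59.6 in placebo replicates 1 and 2. The neutrophil sums of high and low hearts thus overlapped. Of the marker lists, only smooth muscle and pericyte sums did not, at 69.4 to 69.7 in high and 67.6 to 69.3 in low hearts. Sums of the serum response factor list, which shares Acta2, Tagln and Cnn1, were 104.1 to 106.0 and 102.2 to 103.7. These relations to Ccn1 were not tested. Endothelial sums ran from 64.9 to 66.2 in DJ-1 hearts and from 65.7 to 67.3 in placebo hearts. Smooth muscle and pericyte sums ran from 67.6 to 69.5 in DJ-1 hearts and from 68.2 to 69.7 in placebo hearts. Cardiomyocyte sums, the setting of Ankrd1, ran from 101.0 to 102.9 in DJ-1 hearts and from 101.7 to 103.3 in placebo hearts. Monocyte and macrophage sums (6 of 7 markers above background, the monocyte receptor gene Ccr2 below it) ran from 48.9 to 51.1 in DJ-1 hearts and from 48.6 to 50.9 in placebo hearts. Platelet sums (4 of 5 markers measured) ran from 26.3 to 27.8 in DJ-1 hearts and from 25.7 to 29.3 in placebo hearts. Mesothelial and epicardial sums ran from 32.7 to 34.6 in DJ-1 hearts and from 30.7 to 34.4 in placebo hearts. The part of these cells in the CCN values was not tested, and in whole tissue fewer cells of a type cannot be told apart from less RNA per cell.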

How the data were processed

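Biotin-labelled cDNA from 100 ng of total RNA per heart was hybridised to whole-genome arrays, per the labels' protocols. The deposited table gives log2 values of 35556 probe sets on 8 arrays, computed by the authors with RMA, per the submitters' processing notes. Software and annotation versions: not given in the sources used here. RMA generally shrinks folds of dim probe sets. Gene names came from the platform annotation: 21789 probe sets had 1 symbol, 1621 several and 12146 none, and only the first were used. No pair of arrays was identical (0 pairs).

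The group difference was fitted with limma 3.58.1 (lmFit, eBayes, two-sided, R 4.3.3), adjusted by Benjamini-Hochberg over 19938 genes at 0.05, without covariates. The number of arrays limits the precision: the median standard error was 0.12. Exact permutation tests over 70 splits cannot give a p under 0.0286. The genes, lists and tests were chosen with earlier results of these data known. Named beyond the 8 genes were the 3 members of smallest p in each list and, for Ccn1, Ccn2 and Ankrd1, the 3 genes of highest correlation. Alternatives were other normalizations, a filter on dim genes, other variance models, averaged probe sets, a replicate block and left-out arrays. Promoter sequences came from RefSeq.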

Additional observations from a re-analysis of the deposited data

Results flagged for a closer look

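A heart stood far from the other 3 of its group in 4 of 58 groups examined (29 named genes, 2 groups each), by Dixon's criterion, which singles out about 1 in 20 groups by chance. DJ-1 replicate 3 stood at 11.43 for Ccn1, against 9.51 to 9.68 in the other DJ-1 hearts. DJ-1 replicate 4 stood at 12.27 for Ankrd1, against 12.78 to 12.86 in the others. DJ-1 replicate 2 stood at 6.13 for Ccn5, against 6.47 to 6.52, and at 4.31 for Foxf2, against 3.86 to 3.91, both within the DJ-1 group. The heart concerned differed from gene to gene, except that DJ-1 replicate 2 was the one for both Ccn5 and Foxf2, and all 4 cases were in the DJ-1 group.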

How the results depend on the processing

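Leaving out each array in turn gave 0 to 1 genes past adjusted p 0.05; the 1 gene, without DJ-1 replicate 3, was Pramel27, whose mean of 4.23 lay under the background guide level of 4.74. Leaving out arrays gave differences of -0.69 to 0.055 for Ccn1, -0.15 to 0.27 for Ccn2, -0.33 to -0.12 for Ccn3, -0.21 to 0.072 for Ccn4, -0.026 to 0.15 for Ccn5, -0.11 to 0.10 for Ankrd1, -0.15 to -0.05 for Yap1 and -0.25 to -0.07 for Tead1. Among the 21 pairs without Ccn1, 0 to 1 were called: Yap1 with Tead1 without DJ-1 replicate 2 (r = 0.94, exact permutation p = 0.00218, adjusted p = 0.0333; lowest r 0.68) and Ccn3 with Ankrd1 without DJ-1 replicate 4 (r = -0.99, adjusted p = 0.00556). Over all 8 hearts Ccn3 and Ankrd1 had r = -0.25 (exact permutation p = 0.529, adjusted p = 0.925), so that call rested on leaving out 1 heart. Without DJ-1 replicates 3 and 4 the signs turned for Ccn2 (-0.13), Ccn5 (-0.033), Ankrd1 (0.10), Vgll2 (-0.024) and Trim63 (0.037); the cause was not tested. Other normalizations, variance models and averaged probe sets turned no sign among the 8 genes and called 0 genes, as did the filter on dim genes, which left out Ccn4, Wwc1 and Foxf2 and gave 781 genes at an unadjusted p under 0.05. Same-numbered hearts did not deviate together in every pair (r = 0.00, 0.17, 0.18 and 0.01). The main fit treated the numbers as names, and whether hearts of 1 number were handled together was not tested. The fit with the replicate block called 0 genes (1302 before adjustment). With the block the SE of the Ccn1 difference was 0.27, against 0.45 in the main fit. Low signal limits Ccn4, whose mean did not exceed the 95th percentile of the olfactory receptor genes.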

Other observations

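The sixth CCN gene, Ccn6, was looked at after the values of the others had been seen. It stood at 4.78, 5.19, 5.09 and 5.07 in DJ-1 replicates 1 to 4, against 4.49, 4.93, 4.97 and 4.61 in placebo replicates 1 to 4. The groups overlapped, and the difference of 0.28 (SE 0.13, limma adjusted p = 0.824) did not pass, at a level just above that of most olfactory receptor genes.

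Egr1, an immediate early factor gene on the list of serum response factor targets, was also chosen after its values were seen. It stood at 8.93, 9.01, 10.00 and 9.14 in DJ-1 replicates 1 to 4, against 8.41, 9.33, 9.37 and 10.08 in placebo replicates 1 to 4. Its top hearts, placebo replicate 4 and DJ-1 replicate 3, followed by placebo replicate 3, were the same 3 as those of Ccn1, Ccn2 and Nr4a1, although placebo replicate 2 was close behind.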
